A study of Homo sapiens with 9 samples.

Results

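Messenger RNAs of cytosolic ribosomal proteins were followed in MCF10A, a non-tumorigenic human cell line of breast epithelial origin. The genes were chosen by name and by read depth. A symbol qualified when it began with RPL or RPS, went on with a number and optionally ended in A or X, or when it was RPSA, RPLP0, RPLP1 or RPLP2. It also needed at least 50 counts in each of the 9 libraries. Of 25369 symbols in the count table, 77 had such a name and 69 met the count minimum, 43 from the large and 26 from the small ribosomal subunit. Among the 8 genes left out were RPL21, RPS10, RPS28, RPS27, RPL7 and RPS26. RPL21 was listed at 0 in all 9 libraries, and RPS26, the nearest below the minimum, had 32 counts in its lowest library and 207 in its highest. Just inside the minimum were RPL36A with 59, RPL17 with 63, RPL41 with 119 and RPL39 with 121 counts in their lowest libraries.

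Cells had been transduced with a retroviral vector, either empty (pBABEpuro, called EV here) or carrying a constitutively active HER2 receptor (pBABEpuro-HER2-CAV659E). All cells then received siRNA, a control or 1 of 2 reagents against YAP and TAZ, numbered 1 and 3. They were replated 24 h later on plastic or on a polyacrylamide hydrogel of 0.5 kPa, called soft here, and were harvested after another 24 h. The EV groups were control siRNA on plastic (2 libraries, A and B), YAP/TAZ siRNA on plastic (siRNA 1 and siRNA 3) and control siRNA on the soft gel (1 library). The HER2 groups were control siRNA on plastic (1 library), YAP/TAZ siRNA on plastic (siRNA 1 and siRNA 3) and control siRNA on the soft gel (1 library). YAP/TAZ siRNA was given on plastic only. Total RNA was sequenced after depletion of ribosomal RNA, and nothing in the labels says that libraries came from separate cultures or clones, so p-values measure only the spread between these libraries.

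Ribosomal proteins are assembled with ribosomal RNA into a large subunit, which joins amino acids, and a small subunit, which reads the messenger RNA. One copy of most of these proteins is needed per ribosome. Most of their messenger RNAs begin with an uninterrupted run of C and T (a terminal oligopyrimidine tract, TOP), through which mTOR signalling and the protein LARP1 set their translation and stability. In epithelial cells the group is best known as a readout of growth signalling.

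The start of the transcript is shown for genes on which the results below turn. RefSeq starts (GRCh38.p14) were available for 57 of the 69 genes. Each window runs from 10 bases before the start to the first 20 transcribed bases, 30 bases in all, and the longest run of C or T is in capitals. For genes with several listed starts, the start with the longest run was used, for these and for all other genes alike. The first set had higher levels in HER2 or soft libraries.
RPL38, chr17:74203668-74203697, plus strand: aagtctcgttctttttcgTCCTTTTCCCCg
RPL26, chr17:8383174-8383203, minus strand: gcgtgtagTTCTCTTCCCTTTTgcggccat
RPL11, chr1:23691796-23691825, plus strand: gctccgCTTTCTCTTCCTgctctccatcat
RPS24, chr10:78033853-78033882, plus strand: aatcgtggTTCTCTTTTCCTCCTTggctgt
RPS4X, chrX:72277229-72277258, minus strand: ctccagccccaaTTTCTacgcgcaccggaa

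The second set had lower levels in HER2 libraries, except RPL10 on the soft gel (33.3 CPM in HER2 and 32.1 CPM in EV cells). The last pair had few counts and a wide range over libraries.
RPL10, chrX:154398367-154398396, plus strand: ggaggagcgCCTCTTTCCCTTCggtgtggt
RPL29, chr3:51995876-51995905, minus strand: cagCCCCTTTCTCTTCCggttctaggcgct
RPL18, chr19:48619159-48619188, minus strand: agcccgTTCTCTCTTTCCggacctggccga
RPLP2, chr11:809957-809986, plus strand: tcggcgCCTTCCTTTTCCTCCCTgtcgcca
RPS19, chr19:41860245-41860274, plus strand: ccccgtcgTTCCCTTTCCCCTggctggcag
RPS14, chr5:150449720-150449749, minus strand: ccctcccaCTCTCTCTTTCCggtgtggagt
RPL36A, chrX:101391001-101391030, plus strand: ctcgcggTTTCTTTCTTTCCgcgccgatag
RPL17, chr18:49492446-49492475, minus strand: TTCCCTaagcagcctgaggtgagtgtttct

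Runs of 11 bases or more were present in 11 of these 13 genes, and RPS4X (5 bases) and RPL17 (6 bases) were the exceptions. Over the 57 genes the longest run had a median of 11 bases, from 5 to 25, against a median of 5 in 27248 other genes. A run of at least 8 bases was present in 84.2% of the ribosomal protein genes and 15.3% of the others. The letters CTTTCC were found on the transcribed strand in 28.1% of the ribosomal protein windows (16 genes) and 1.73% of the others. On the opposite strand they were found in 0% and 1.1%. These are matches of letters within a window and were not related to the changes described below.

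Levels of the 69 genes, compared per kilobase of transcript, spanned a wide range. Counts were scaled to library size as CPM with TMM factors and divided by the median transcript length. High means over 9 libraries were 3685 CPM per kb for RPL11, 3170 for RPL30, 2781 for RPL38 and 2659 for RPL26. The lowest were 3.64 for RPL17, 6.02 for RPL41, 6.76 for RPL36A, 7.22 for RPL9 and 16.2 for RPS3A. Proteins made in equal number per ribosome thus had transcripts with very unequal read densities in these files. RPL11 joins 5S ribosomal RNA and RPL5 in a complex that can bind MDM2, the regulator of p53. RPL41 encodes one of the shortest known human proteins.

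Many of these genes have near-identical copies elsewhere in the genome, and the treatment of reads that map to several places was not given in the sources used here. For each gene, the share of its 50-base stretches found in no other GENCODE 29 gene was counted. The median share was 73.7%, and 14 genes had less than 50%. It was 98.2% for RPL11, against 26.1% for RPL17, 25.9% for RPL9 and 16.9% for RPS3A. Level per kb and this share had a Spearman rho of 0.46 over the 69 genes, a description over genes that share libraries. RPL26 was high with a share of 39.2%, and RPLP1 was low with 90.4%, at 17.3 CPM per kb. RPSA shows how close a copy can be. In a stretch of 60 coding bases (bases 316 to 375 of the RPSA reading frame, GRCh38 transcripts), RPSA on chromosome 3 and its pseudogene RPSAP58 on chromosome 19 differed at 1 base, in capitals.
RPSA: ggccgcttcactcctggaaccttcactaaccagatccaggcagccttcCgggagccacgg
RPSAP58: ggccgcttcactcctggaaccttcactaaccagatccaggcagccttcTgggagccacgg

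RPSAP58 itself had 9 to 72 counts per library. The table held 30 pseudogenes named after cytosolic ribosomal protein genes, some of them after RPL21, RPS10 and RPS26, which were left out. Of the 30, 4 were at 0 in every library, and counts of all 30 summed to 0.055% to 0.117% of the counts of the 69 genes. Levels of genes with many copies are therefore uncertain as levels, and reads of a gene and a near-identical copy cannot be told apart here.

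**Figure D1:**
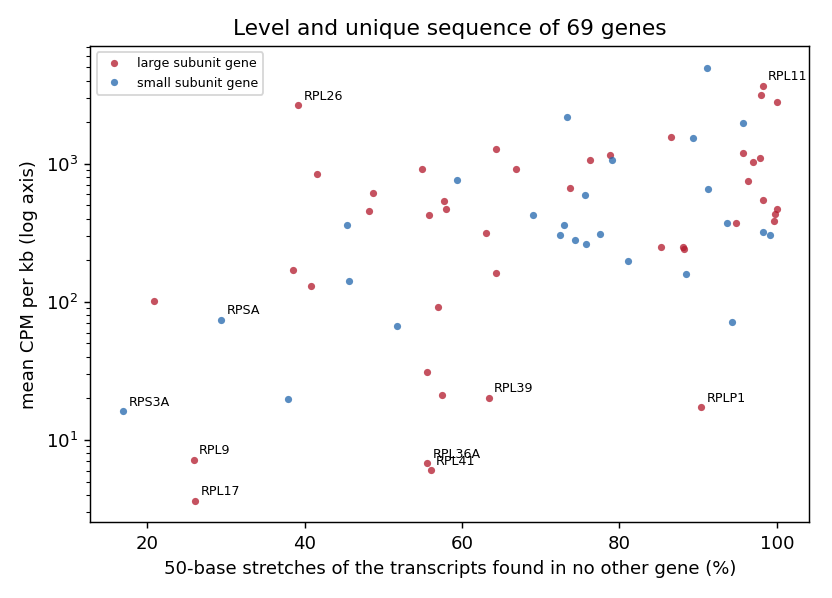
Mean CPM per kb over 9 libraries (vertical, log axis) against the percentage of 50-base stretches found in no other gene (horizontal) for 43 large subunit genes (red) and 26 small subunit genes (blue). RPL11 lies at the top right with 3685 CPM per kb, and RPL17 and RPL9 at the bottom left with 3.64 and 7.22.

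Sequencing depth was lowest for HER2 cells with control siRNA on plastic (24425556 counts) and greatest for EV cells with siRNA 3 (78945981). The knockdown was visible in every siRNA library: YAP1 stood at 9.75 to 18.9 CPM there and at 71.2 to 115 CPM in the other 5. WWTR1, the gene of TAZ, was at 14 and 21.6 CPM with siRNA 1 and 3 in EV cells, against 66 to 77.4 CPM in the other EV libraries. In HER2 cells WWTR1 was at 29 and 48.2 CPM, against 170 CPM in the control and 146 CPM on the soft gel. ERBB2, the gene of HER2, was at 361 to 614 CPM in the 4 HER2 libraries and at 57.7 to 95.5 in the 5 EV libraries. The lines also differed in cell type markers. A list of 10 mammary epithelial markers summed to 7266 to 17992 CPM in EV libraries and 653 to 1150 CPM in HER2 libraries. Among them CDH1 was at 144 to 1111 CPM in EV and only 0.238 to 1.65 CPM in HER2 libraries. KRT18 overlapped between the lines, at 112 to 226 CPM in EV and 92.3 to 148 CPM in HER2 libraries. Markers of fibroblasts, endothelium and leukocytes summed to at most 105, 37.9 and 26.1 CPM in any library. The part of this difference in the results on HER2 was not tested. CPM values are relative, so a lower value cannot be told apart from more RNA of other genes.

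The 69 genes held between 3.12% and 4.78% of all counts. In EV cells the share was 3.25% and 3.28% in controls A and B, 3.89% with siRNA 1, 3.37% with siRNA 3 and 4.78% on the soft gel. HER2 cells had 3.12% under control siRNA, 3.93% and 3.45% under siRNA 1 and 3, and 4.18% after culture on the soft gel. Both soft libraries thus had the highest share of their line. The 6 genes with the most counts (among them RPL11, RPS4X, RPS6, RPL26 and RPL30) took 1.01% in control A and 1.94% in the EV soft library. Without them the other 63 genes held 2.24% and 2.84%. In the HER2 control the 6 genes held 1.41%, more than in either EV control, and the others 1.71%, less than in any other library.

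**Figure D2:**
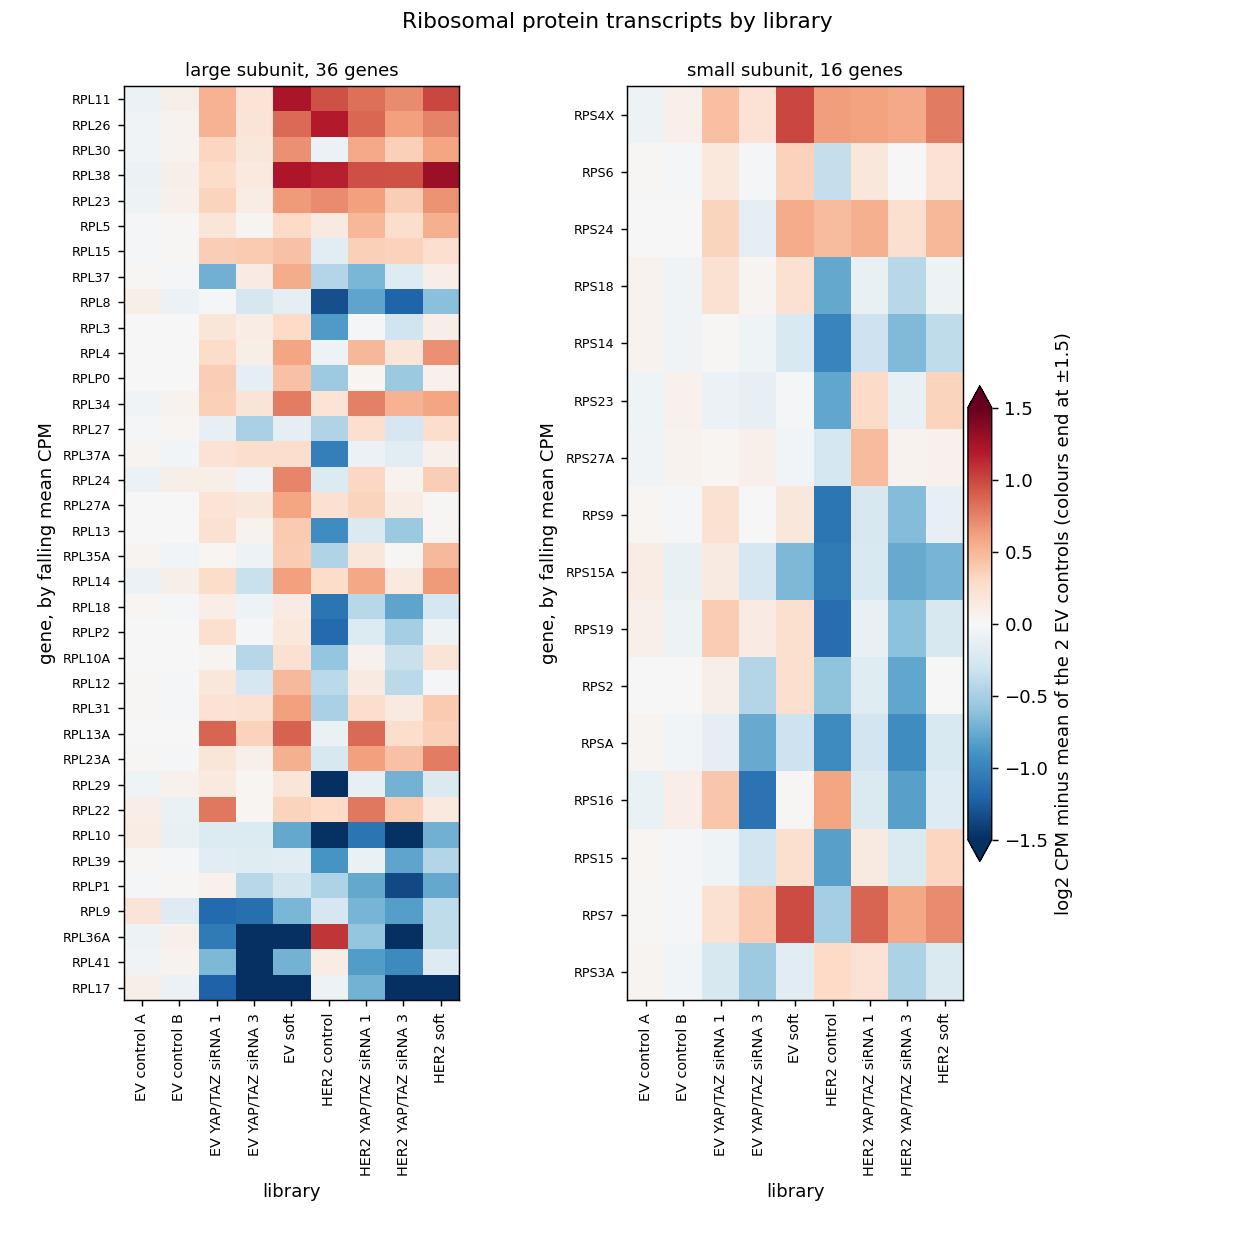
Log2 CPM of each gene in each of 9 libraries minus the mean of the EV controls A and B (colour, ending at ±1.5), for the genes named in the text, large subunit on the left and small subunit on the right, each ordered by falling mean CPM. The HER2 control library holds most of the strong blue among abundant genes, while RPL11, RPL38 and RPS4X are red in the EV soft library and in all 4 HER2 libraries.

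The first question was what activated HER2 does to these transcripts. On plastic with control siRNA, the median of the 69 genes of HER2 over EV was -0.40 on the log2 scale, and single genes ranged from -1.51 to 1.19. The median over all 16117 tested genes was -0.08. Of the 69 genes, 53 had a negative and 16 a positive log2 fold change. RPL26, RPL38, RPL11, RPL23, RPS4X and RPS24 lay on the high side, and RPL29, RPL10, RPL8, RPLP2 and RPS19 on the low side.

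A pair of edgeR fits was used throughout, each with quasi-likelihood F tests and Benjamini-Hochberg adjustment over all tested genes, and a gene is said to be called when its adjusted p was under 0.05. The group-means fit takes the 6 groups as they are. The reagent-blocked fit adds 1 term, common to EV and HER2 cells, for the difference of the siRNA reagents. In the group-means fit 0 of the 69 genes were called for HER2 on plastic, 23 had an unadjusted p under 0.05 and the smallest adjusted p was 0.0626, with 1.03% of all genes called. In the reagent-blocked fit 7 were called higher and 23 lower (30 of 69), against 22.3% of all genes, 9.08% higher and 13.2% lower. DESeq2 with the group-means model called 5 higher and 15 lower, where 17.5% of all genes were called. The 23 lower genes are a larger share of the 69 than of all genes, and the 7 higher a similar one; in DESeq2 5.91% of all genes were called higher and 11.5% lower. DESeq2 with the reagent block called 34 (35.6% of all genes). The blocked edgeR count depended on single libraries: without control A it was 0, without control B 2 higher and 1 lower, and without any 1 siRNA library 13 or 14 higher and 45 lower. The HER2 control is a single library and the shallowest. For fits without 1 library, here and below, the share of all genes called is not given. Those counts therefore cannot be read as particular to the 69 genes.

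The higher genes are shown by library. RPL38, which mice need for the translation of Hox messenger RNAs, stood at 668 and 752 CPM in EV controls A and B and at 1587 CPM in the HER2 control. Its value was 861 CPM with siRNA 1 and 786 CPM with siRNA 3 in EV cells, and 1383 and 1373 CPM in HER2 cells. On the soft gel it was at 1641 CPM in EV and 1735 CPM in HER2 cells. So RPL38 was low in the 4 EV libraries on plastic and high in the other 5. Its log2 fold change for HER2 on plastic was 1.16 ± 0.20 (SE, edgeR adjusted p = 0.0626), and ± 0.13 in the blocked fit (adjusted p = 0.00941). RPL26, which in human cells also binds the messenger RNA of p53, rose from 1136 and 1222 CPM to 2692 CPM in the HER2 control, a log2 fold change of 1.19 ± 0.12 in the blocked fit (edgeR adjusted p = 0.00732). It was at 2141, 1810 and 1975 CPM in the other HER2 libraries, which lay between the HER2 control and the EV controls. RPL11 was at 1919 and 2180 CPM in the EV controls and 3956 CPM in the HER2 control, with 3614, 3343 and 4086 CPM in the other HER2 libraries (blocked log2 fold change 0.95 ± 0.14, edgeR adjusted p = 0.0142).

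The lower genes include proteins of the catalytic core. RPL8 lies beside the peptidyl transferase centre. It was at 1043, 924, 963, 826 and 897 CPM in the 5 EV libraries (A, B, siRNA 1, siRNA 3 and soft) and at 392, 567, 426 and 637 CPM in the 4 HER2 libraries (control, siRNA 1, siRNA 3 and soft). The groups did not overlap. Its log2 fold change on plastic was -1.33 ± 0.28 in the group-means fit (edgeR adjusted p = 0.0793) and ± 0.15 in the blocked fit (adjusted p = 0.0097). RPL10, a late-joining protein near the same centre, was at 59.4, 50.6, 47.7, 47.5 and 32.1 CPM in EV libraries and 19.6, 25.6, 19.7 and 33.3 CPM in HER2 libraries. Here the soft libraries of both lines were alike, and the other libraries separated. RPL29, also known as a heparin-binding protein, was at 71.8 to 85.5 CPM in EV libraries and 26.4, 69.2, 45.8 and 64.7 CPM in HER2 libraries. Its blocked log2 fold change on plastic was -1.51 ± 0.20 (edgeR adjusted p = 0.013), and the HER2 control was the library farthest below the EV range.

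**Figure D3:**
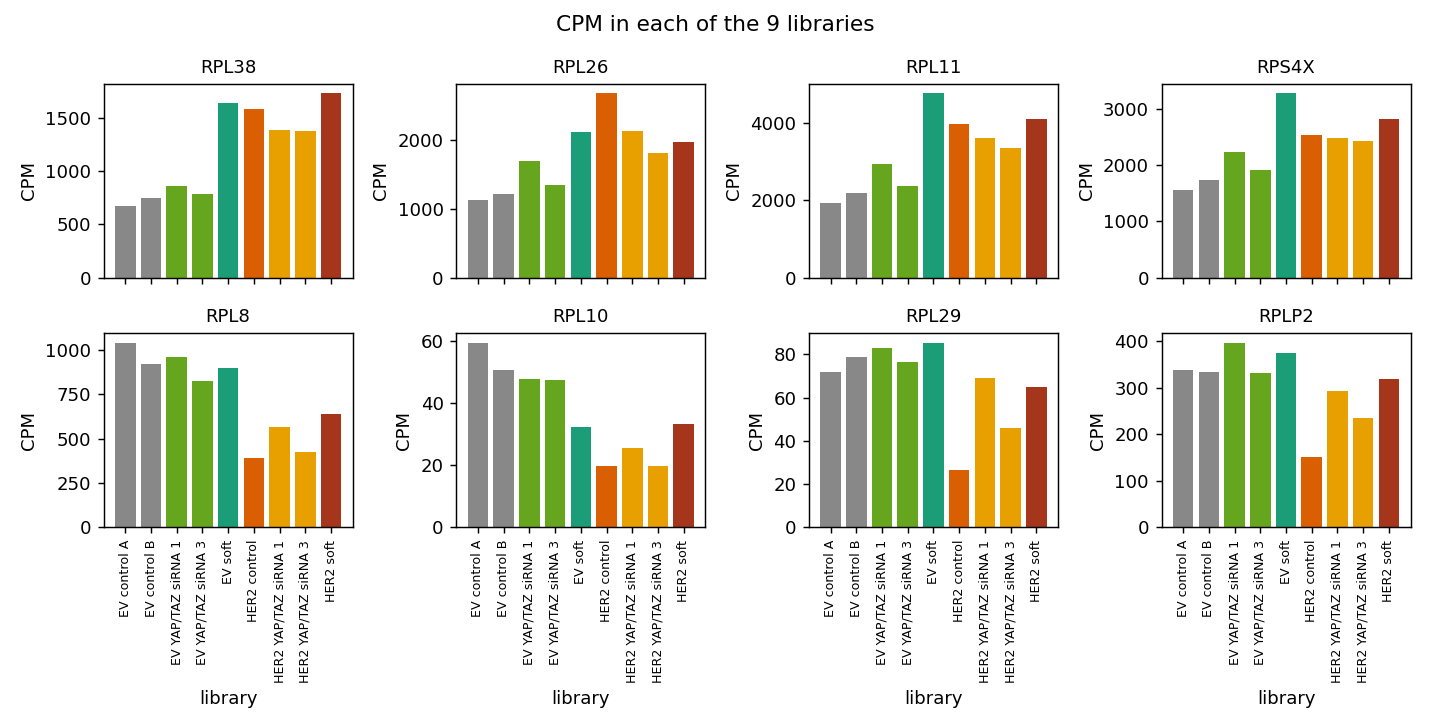
CPM of 8 genes in each of 9 libraries (bars start at 0; grey EV controls, greens other EV libraries, oranges and brown HER2 libraries). RPL38 was at 668 to 861 CPM in the 4 EV libraries on plastic and at 1373 CPM or more in the other 5, whereas RPL8 was at 826 CPM or more in every EV library and at 637 CPM or less in every HER2 library.

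HER2 and EV cells could also be compared in the other settings. With YAP/TAZ siRNA on plastic, where each line had 2 libraries, the median of the 69 genes was -0.02 and that of all genes -0.04. The group-means fit called 0 of the 69 (8 with an unadjusted p under 0.05; 5.84% of all genes were called), DESeq2 called 3 (22.4% of all genes) and the blocked fit called 4 higher and 12 lower (32.8% of all genes, 15.4% higher and 17.5% lower). The share was below that of all genes. RPL38 was 0.74 ± 0.11 higher (edgeR adjusted p = 0.0106) and RPL26, RPL23A and RPL34 were called higher too. RPL10, RPL8, RPLP1, RPLP2, RPLP0, RPL13, RPL18, RPL37A, RPS9, RPS14, RPS18 and RPS19 were called lower. With the GC trend removed, described below, the same fit called 7 higher and 2 lower, RPLP1 and RPL10. Without control A or without control B, 1 was called higher and 2 lower in the uncorrected fit, and without any 1 siRNA library 15 to 22 higher and 17 to 27 lower. Blocked DESeq2 called 21 (39.4% of all genes). On the soft gel, with 1 library a line, the median was -0.15 and all genes stood at -0.08. The group-means fit and DESeq2 each called 0 of the 69 (0 and 1 with an unadjusted p under 0.05; 1.51% and 18.4% of all genes called). The blocked fit called RPL36A higher and RPL27A and RPL13A lower (25.7% of all genes called, 11% higher and 14.6% lower), 0 without control A or without control B, and 7 or 8 higher and 24 to 30 lower without any 1 siRNA library. With the block DESeq2 called 4 (34.7% of all genes).

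The mean of the 3 HER2 contrasts, a comparison chosen after the data had been seen, uses all 9 libraries. The group-means fit called 1 gene higher and 11 lower (12 of 69), where 25.8% of all genes were called, 10.2% higher and 15.6% lower. RPL38 was the higher one, at 0.66 ± 0.12 (edgeR adjusted p = 0.0156). The lower ones were RPL8 (-0.89 ± 0.16, edgeR adjusted p = 0.0146), RPL10, RPL29, RPS19, RPL18, RPS9, RPLP2, RPL13, RPS14, RPL37A and RPL3. The share of the 69 genes was below that of all genes. Without control A or without control B 0 of the 69 were called, without EV siRNA 1 5, and without HER2 siRNA 1 20. The blocked fit called 7 higher and 27 lower, with 49.5% of all genes called, 22.3% higher and 27.2% lower, and DESeq2 17 of the 69 and 36.7% of all genes, or 31 and 52.6% with the block. CPM of the 4 HER2 and 5 EV libraries did not overlap for 9 of the 69 genes, 13% of them, against 18.5% of all tested genes. All 9 were lower in HER2: RPL8, RPL18, RPL29, RPLP1, RPLP2, RPS9, RPS14, RPS18 and RPS19. The 18.5% covers either direction, and its split by direction is not given. Transcripts of the 9 had a GC of 51.7% (RPS18) to 62.4% (RPL8), where the median of the 69 genes was 50.4%. These CPM were not corrected for the GC trend described below. RPS19, mutated in Diamond-Blackfan anaemia, was at 91.6 to 187 CPM in HER2 and 192 to 263 CPM in EV libraries. RPS14, lost in the 5q- syndrome, was at 258 to 414 CPM and 438 to 533 CPM.

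GC content ran with the HER2 difference. Over 14891 tested genes with a known transcript, the log2 fold change for HER2 on plastic had a Spearman rho of -0.45 with GC, and over the 69 genes -0.51. These are descriptions over genes measured in the same libraries. In 10 equal bins of GC the median of all genes went from 0.40 in the lowest bin (median GC 37.9%) to -1.37 in the highest (64.2%). The 23 ribosomal protein genes with the lowest GC (42.6% to 47.5%) had a median of -0.09, the middle 23 (47.6% to 52.1%) -0.35 and the highest 23 (52.3% to 62.4%) -0.85. When each library's GC trend was removed, the median of the 69 genes was -0.25 and the blocked fit called 5 higher and 11 lower, where 11.6% of all genes were called, 6.19% higher and 5.38% lower. RPL26, RPL38, RPL11 and RPL23 were among the 5. RPL8, whose transcript has a GC of 62.4%, went from -1.33 to -0.32 (edgeR adjusted p = 0.171) and was no longer called. RPL10, at 53.4% GC, kept -1.20 (edgeR adjusted p = 0.0341). For the mean of the 3 HER2 contrasts, removing the trend left RPL38 called higher and RPL10 and RPL37A called lower in the group-means fit, where 21.1% of all genes were called, and RPLP2 went from -0.62 to 0.05. The blocked fit with the trend removed called 22 of the 69 for the soft gel in EV cells (19.2% of all genes), 9 and 1 for siRNA in EV and HER2 cells (26% and 1.7%), 9 for HER2 with siRNA (26.5%) and 26 for the mean contrast (45.3%). For HER2 with siRNA the split turned from 4 higher and 12 lower to 7 higher and 2 lower, with a median of 0.10 over the 69 genes. For HER2 on the soft gel it called 0 (25.8%).

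**Figure D4:**
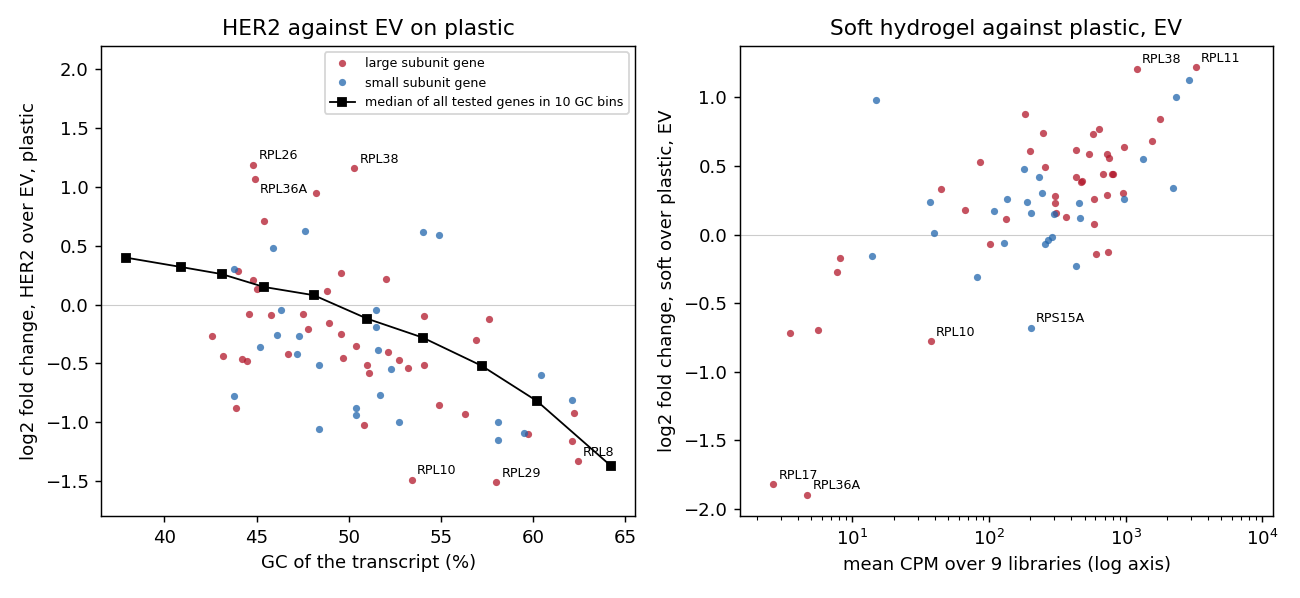
Left, log2 fold change of HER2 over EV cells on plastic against transcript GC (%) for the 69 genes, with the median of all tested genes in 10 GC bins (black squares), which falls from 0.40 to -1.37. Right, log2 fold change of the soft gel over plastic in EV cells against mean CPM over 9 libraries (log axis), where RPL17 and RPL36A lie lowest at -1.82 and -1.90 and RPL11 and RPL38 highest at 1.22 and 1.21.

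A soft substrate was the next condition. In EV cells the median of the 69 genes was 0.26 higher on the soft gel than on plastic, with 51 genes above 0, while the median of all genes was 0.01. Log2 fold change and mean CPM had a Spearman rho of 0.59 over the 69 genes, a description. The group-means fit called 0 of them (17 with an unadjusted p under 0.05), and it called 0% of all genes. DESeq2 called 10 higher and 0 lower, with 14.4% of all genes called. The blocked fit called 18 higher and 3 lower (21 of 69), against 20.2% of all genes, 10.2% higher and 9.95% lower. Higher calls were thus more frequent among the 69 genes than among all genes, and lower calls less. The single soft library is compared with controls A and B, and without control A the blocked count was 0, without control B 1, and without any 1 siRNA library 41 to 46 higher and 8 to 10 lower. DESeq2 with the block called 31 (31.2% of all genes).

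Of the 18, 14 were large subunit genes (RPL4, RPL11, RPL12, RPL13A, RPL14, RPL23, RPL23A, RPL24, RPL26, RPL27A, RPL30, RPL31, RPL34 and RPL38) and 4 small subunit genes, among them RPS4X, RPS7 and RPS24. RPL11 went from 1919 and 2180 CPM to 4768 CPM, a log2 fold change of 1.22 ± 0.14 (blocked fit, edgeR adjusted p = 0.0139). RPS4X, the X-linked form of a small subunit protein, went from 1555 and 1730 CPM to 3283 CPM. In both the soft library was the highest of the 9. RPS7, which can bind MDM2, was at 11.2 and 11.1 CPM on plastic and 21.9 CPM on the soft gel. Called lower were RPS15A, from 276 and 237 CPM to 161 CPM, and the sparsely counted RPL36A and RPL17.

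RPL36A and RPL17 stood apart from the rest. RPL36A was at 5.99 and 6.61 CPM in controls A and B, 3.01 with siRNA 1, 0.729 with siRNA 3 and 1.68 on the soft gel in EV cells. In HER2 cells it was at 13.3, 4.21, 1.75 and 4.81 CPM. The highest value was 18.2 times the lowest, the widest range of the 69 genes, and the HER2 control was the highest library. Its raw counts were 303 in the HER2 control, the shallowest library, and 59 in the deepest. RPL17 was at 4.86 and 4.28 CPM in the controls and 1.95, 1.19 and 1.29 CPM in the other EV libraries, and at 4.33, 2.77, 1.55 and 1.55 CPM in HER2 cells. Both genes share 50-base stretches with other genes, 14 for RPL36A and 22 for RPL17, and each has a readthrough locus (RPL36A-HNRNPH2 and RPL17-C18orf32) listed at 0 in all 9 libraries.

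In HER2 cells the soft gel gave a median of 0.58 and 58 of 69 genes above 0, with the median of all genes at 0.00. The group-means fit and the blocked fit each called 0 of the 69 (21 and 48 with an unadjusted p under 0.05), with 0% and 0.186% of all genes called. DESeq2 called RPL23A, RPL31, RPL35A, RPL37A and RPS23 higher, and 2.3% of all genes. DESeq2 with the block called 31 higher and 0 lower (13.9% of all genes). Without any 1 siRNA library the blocked edgeR fit called 51 or 52 higher and 6 lower. The genes with the largest log2 fold changes were RPL29, RPS7 and RPS15, called by neither edgeR fit with all libraries. This contrast compares 1 library with 1, and the share of all genes called without 1 siRNA library is not given. RPL29 went from 26.4 to 64.7 CPM, RPS7 from 7.83 to 18.2 CPM and RPS15 from 21.6 to 47.6 CPM. RPL11 and RPL38, which were high in the EV soft library, had log2 fold changes here of 0.05 ± 0.26 and 0.13 ± 0.24. Their levels in the HER2 control were 3956 and 1587 CPM.

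The difference between lines in the response to the soft gel was tested as an interaction. Its median was 0.35 over the 69 genes and -0.02 over all genes. The group-means and blocked fits each called 0 of the 69 and 0% of all genes (8 and 30 of the 69 with an unadjusted p under 0.05). DESeq2 with group means called RPL38 alone (adjusted p = 0.0485), against 3.85% of all genes. With the block DESeq2 called 13 higher and 7 lower (19.8% of all genes). Without any 1 siRNA library the blocked edgeR fit called 34 higher and 13 or 14 lower. The lowest values were RPL26 at -1.29 ± 0.37, RPL11 at -1.17 ± 0.35 and RPL38 at -1.08 ± 0.31, each with an edgeR adjusted p of 0.379. The highest was RPL10 at 1.54 ± 0.42 with the same adjusted p. The soft response in HER2 cells, the HER2 contrast on plastic and the interaction share the HER2 control library. The soft response in EV cells, the HER2 contrast on plastic and the interaction share the EV controls.

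Loss of YAP and TAZ was compared with control siRNA on plastic. In EV cells the median of the 69 genes was 0.05 and that of all genes 0.07, and 40 of the 69 lay above 0. Of the 69, the group-means fit called 0 (3 with an unadjusted p under 0.05) and 0% of all genes. DESeq2 called RPL9 and RPL17 lower, with 16.6% of all genes called. The blocked fit called 3 higher and 5 lower (8 of 69), against 25.7% of all genes, 12.1% higher and 13.6% lower, 0 without control A or without control B, and 10 to 26 higher and 8 to 21 lower without any 1 siRNA library. DESeq2 with the block called 10 (34.9% of all genes). The share of the 69 genes was well below that of all genes. RPL13A, which can act outside the ribosome as a translational repressor, was at 136 and 137 CPM in the controls, 249 with siRNA 1 and 173 with siRNA 3 (0.61 ± 0.10, edgeR adjusted p = 0.0162). RPL15 was also called higher. Called lower were RPL36A, RPL17, RPL9, RPL41 and RPSA. RPL9 was at 9.08 and 6.94 CPM in the controls and 3.51 and 3.61 CPM with siRNA.

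In HER2 cells YAP/TAZ siRNA gave a median of 0.43 with 56 of 69 genes above 0, and the median of all genes was 0.07. With group means 0 were called (16 with an unadjusted p under 0.05), and 0% of all genes, while DESeq2 called 6 higher and 4.23% of all genes. The blocked fit called RPLP2, RPL23A and RPL37A higher and RPL36A lower (4.24% of all genes, 2.2% higher and 2.04% lower), 0 without control A or without control B, and 42 to 48 higher and 8 to 10 lower without any 1 siRNA library. DESeq2 with the block called 27 higher and 2 lower (18.5% of all genes). RPL37A was at 290 CPM in the HER2 control and at 554 and 528 CPM with siRNA 1 and 3, against 572 to 707 CPM in the EV libraries. RPLP2 was at 150 CPM in the HER2 control and 292 and 235 CPM with siRNA. In both genes the HER2 control was the lowest of the 9 libraries. The interaction of line and siRNA had a median of 0.36. The group-means and blocked edgeR fits and DESeq2 with group means called 0 of the 69 (6, 28 and 6 with an unadjusted p under 0.05). Of all genes, the edgeR fits called 0% and DESeq2 with group means 0.297%. DESeq2 with the block called 7 higher and 1 lower (5.37% of all genes), and the blocked edgeR fit without any 1 siRNA library 31 to 44 higher and 5 to 8 lower. The HER2 control library is the reference of the siRNA and the soft comparison in HER2 cells alike.

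The reagents themselves differed. Genes were lower with siRNA 3 than with siRNA 1 in 61 of 69 cases in EV cells and 66 of 69 in HER2 cells, with medians of -0.22 and -0.34 over the 69 genes and -0.04 and -0.01 over all genes. The difference between controls A and B had a median of -0.02. Fitted over both lines, siRNA 3 against siRNA 1 gave a median of -0.29, against -0.07 for all genes, and 1 gene higher and 10 lower were called (11 of 69; 16.7% of all genes called, 7.36% higher and 9.36% lower). DESeq2 called 19 of the 69 and 27.2% of all genes. Without control A or without control B 0 were called, and without any 1 siRNA library 2 were called higher and 30 to 54 lower. RPL37 was the higher one. In EV cells it was at 490 and 877 CPM with siRNA 1 and 3, and siRNA 3 resembled the controls (819 and 796 CPM). In HER2 cells it was at 503 and 708 CPM with siRNA 1 and 3, and the control lay between them (594 CPM). Lower were RPLP0, RPSA, RPS2, RPS16, RPL10A, RPL12, RPL13A, RPL14, RPL27 and RPL36A. RPS16 was at 54.9 and 19.1 CPM with siRNA 1 and 3 in EV cells and 35.7 and 23.4 CPM in HER2 cells (-1.07 ± 0.25, edgeR adjusted p = 0.046). Any mean over the reagents therefore averages libraries that differ.

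Medians of large and small subunit genes had opposite signs for HER2 against EV with YAP/TAZ siRNA, at 0.04 and -0.06. In the comparisons that follow they had the same sign. For HER2 on plastic the medians were -0.35 for the large and -0.46 for the small subunit. For the soft gel they were 0.38 and 0.20 in EV cells and 0.58 and 0.57 in HER2 cells. For YAP/TAZ siRNA they were 0.10 and 0.04 in EV and 0.38 and 0.46 in HER2 cells. The small-minus-large difference between replicate libraries had a pooled SD of 0.0363, so the gap of -0.18 on the soft gel in EV cells and of -0.12 for HER2 on plastic were larger than that spread, while that in HER2 cells on the soft gel was not. Without control A the gap for HER2 on plastic was -0.06. The ratio of large to small subunit counts ran from 1.56 in the EV library with siRNA 1 to 1.72 in the HER2 soft library.

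**Figure D5:**
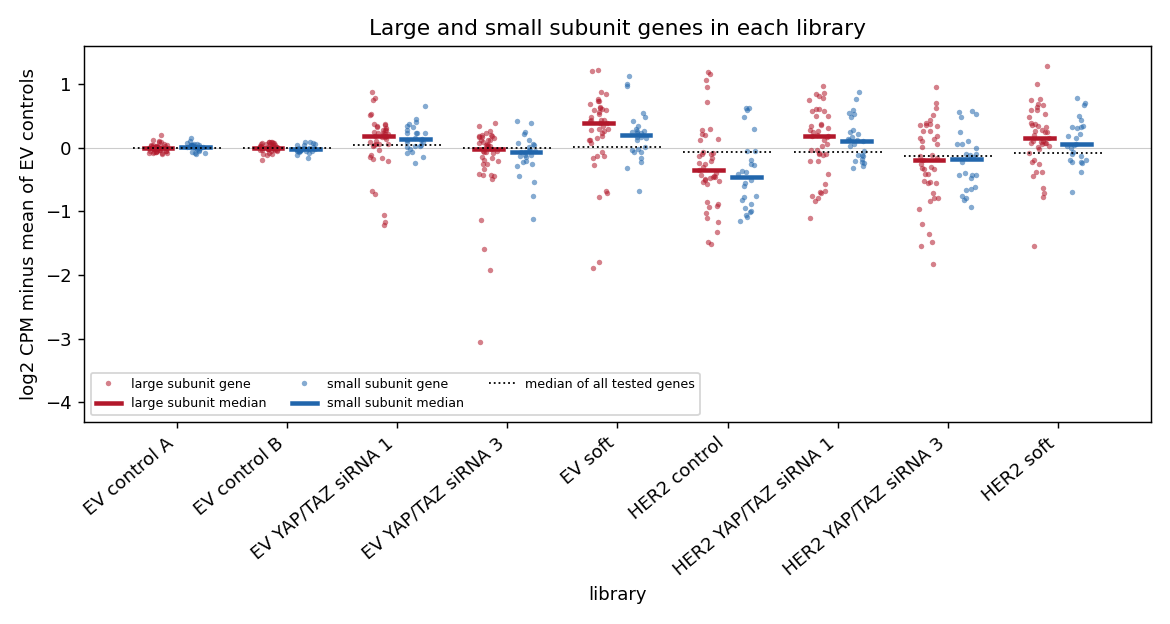
Log2 CPM minus the mean of the EV controls for every gene in each of 9 libraries (points), with the median of the 43 large subunit genes (red line), of the 26 small subunit genes (blue line) and of all tested genes (dotted line). The large and small subunit medians are lowest in the HER2 control at -0.35 and -0.46 and highest in the EV soft library at 0.38 and 0.20.

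Transcript length was examined because ribosomal protein transcripts are short. Their median length was 750 bases against 2430 for all tested genes with a known transcript, and 50 of the 69 fell in the shortest of 10 equal bins. For HER2 on plastic the median of all genes rose over these bins from -0.29 in the shortest to 0.17 in the longest. After subtraction of a smooth trend over length, the median of the 69 genes went from -0.40 to -0.15, in HER2 cells on the soft gel from 0.58 to 0.23, and with siRNA in HER2 cells from 0.43 to 0.25. In EV cells on the soft gel it went from 0.26 to 0.20. Among the 69 genes length itself had Spearman rho between -0.10 and 0.14 with the changes in these comparisons, a description.

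Members with known roles outside the core differed among themselves. In the stalk that recruits elongation factors, RPLP0 was at 673 and 681 CPM in the EV controls and 465 CPM in the HER2 control, RPLP2 at 338 and 334 against 150 CPM, and RPLP1 at 9.9 and 10.2 against 7.27 CPM. RPLP2 and RPLP0 were called lower in the blocked fit (edgeR adjusted p = 0.00861 and 0.0346), and RPLP1 was not (adjusted p = 0.195). RPS6, the substrate of the S6 kinases, was at 2138 and 2088 CPM in the EV controls, 2353, 2072 and 2678 CPM in the other EV libraries and 1649, 2372, 2106 and 2461 CPM in HER2 libraries. RPS6 was called in none of the 11 comparisons in either edgeR fit, but with the GC trend removed the blocked fit called it lower for HER2 on plastic (-0.52, edgeR adjusted p = 0.0437). RPL5, the partner of RPL11 in the 5S complex, had a narrower range of 803 to 1172 CPM and was called only in the blocked fit of the mean HER2 contrast (0.21 ± 0.07, edgeR adjusted p = 0.0481). RPSA, which also serves as a laminin receptor, was at 108 and 102 CPM in the EV controls and 54.5 CPM in the HER2 control, and close to that in both siRNA 3 libraries (61.8 and 54.8 CPM). RPS27A, made as a fusion with ubiquitin, was at 219 to 365 CPM and was called in none.

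Other genes of translation were followed as lists. Of 21 further genes with TOP starts or translation roles, the blocked fit called 9 higher and 0 lower on the soft gel in EV cells, with a list median of 0.46 against 0.01 for all genes. EEF1A1, the elongation factor that delivers aminoacyl-tRNA, went from 744 and 824 to 1714 CPM (1.13 ± 0.12, edgeR adjusted p = 0.0132). TPT1, a growth-related TOP gene, went from 2901 and 3056 to 6091 CPM (1.03 ± 0.11, edgeR adjusted p = 0.0137). EEF2, EIF3E, EIF3F, EIF3H, EIF3L, EIF4B and BTF3 were the others. In HER2 cells on plastic the list median was 0.16 with 5 called higher and 2 lower, among them GNB2L1 (RACK1, a scaffold protein of the small subunit), which was at 2240 and 2221 CPM in the EV controls and 1489 CPM in the HER2 control. With YAP/TAZ siRNA in EV cells 7 were called higher and NPM1, a nucleolar ribosome assembly factor, lower (1181 and 1223 CPM in the controls, 813 and 522 CPM with siRNA). Among all genes the blocked fit called 10.2% higher and 9.95% lower for the soft gel in EV cells, 9.08% and 13.2% for HER2 on plastic, and 12.1% and 13.6% for siRNA in EV cells. The group-means fit called 0 of the 21 in these 3 comparisons.

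Among 7 tested paralogs outside the naming rule was RPL22L1. It was at 527 and 568 CPM in the EV controls, 127 and 117 CPM with siRNA 1 and 3 and 155 CPM on the soft gel, and at 622, 360, 236 and 370 CPM in HER2 libraries. The control libraries on plastic of both lines were thus the highest, and the other EV libraries the lowest. Its log2 fold change with siRNA in EV cells was -2.16 ± 0.16 (blocked fit, edgeR adjusted p = 0.00602; group-means adjusted p = 0.07). RPL22, its paralog and a member gene, was at 37.7 and 32.6 CPM in the controls, 60.5 and 35.8 CPM with siRNA and 44.3 CPM on the soft gel, and was not called there. RPL36AL was at 277 and 297 CPM in the EV controls and 596 CPM on the soft gel (1.05 ± 0.12, edgeR adjusted p = 0.0139), where RPL36A was lower. RPL39L, best known from testis, was at 0.493 to 2.71 CPM in EV libraries and listed at 0 in 2 HER2 libraries and at 0.0303 and 0.327 CPM in the others.

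Mitochondrial ribosomal proteins, which share the task but not the organelle, were compared over 76 tested genes. Their median was -0.02 for HER2 on plastic, -0.14 for the soft gel in EV cells and -0.43 for YAP/TAZ siRNA in EV cells, where the blocked fit called 0 higher and 26 lower, against 12.1% and 13.6% of all genes. The 69 cytosolic genes had -0.40, 0.26 and 0.05 in the same comparisons. Over 70 subunits of the respiratory chain the medians were -0.31, 0.32 and 0.05, and the blocked fit called 17 higher and 0 lower on the soft gel in EV cells, against 10.2% and 9.95% of all genes. The group-means fit called 0 of either list in these 3 comparisons. On the soft gel in HER2 cells all 3 groups of genes lay on the same side: the medians were 0.58 for the cytosolic, 0.42 for the mitochondrial (69 of 76 above 0) and 0.86 for the respiratory chain genes (68 of 70 above 0). With YAP/TAZ siRNA in HER2 cells they were 0.43, 0.03 and 0.48. No test of the difference between lists was made. The soft contrast in HER2 cells compares 1 library with 1, and neither edgeR fit called a gene of these groups in it. Over all genes its median fell from 0.15 in the shortest length bin to -0.32 in the longest. With the length trend subtracted the cytosolic median was 0.23, and no such value is given for the other lists.

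Regulators of TOP translation formed a list of 17 genes. On the soft gel in EV cells the blocked fit called 0 higher and 4 lower: MTOR, EIF4EBP1, EIF4G1 and LARP1. With YAP/TAZ siRNA in EV cells 1 was called higher, SESN2, and 8 lower. The shares of all genes called higher and lower were 10.2% and 9.95% on the soft gel and 12.1% and 13.6% with siRNA. EIF4EBP1, the inhibitor of cap-dependent initiation, was at 71 and 69.4 CPM in the controls, 29.8 and 30.1 CPM with siRNA and 23.8 CPM on the soft gel. LARP1 was at 279 and 285 CPM in the controls, 204 and 122 CPM with siRNA, 178 CPM on the soft gel and 476 CPM in the HER2 control, the highest of the 9 libraries. The group-means fit called 0 of the 17 in both comparisons. MYC, a driver of ribosome production, was at 276 and 280 CPM in the EV controls and at 67.6 CPM in the EV and 120 CPM in the HER2 library with siRNA 3, its lowest values. It was at 246 and 221 CPM in the siRNA 1 libraries.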

How the data were processed

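Raw counts per gene symbol for 9 libraries were deposited as one table. Per the submitters' processing notes, STAR 2.5.3a, featureCounts, edgeR and hg19 were used. Annotation, strand and the handling of multiply mapping reads are not given in the sources used here. Library totals ran from 24425556 to 78945981 counts, and the row without a symbol held 0 counts.

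Groups followed the labels. The main tool was edgeR 4.0.16 under R 4.3.3 (filterByExpr, minimum count 10, 16117 genes; TMM; quasi-likelihood F test; Benjamini-Hochberg). The group-means fit had 3 residual degrees of freedom and the reagent-blocked fit (replicate block) 2, and groups of 1 library were assumed to vary like the others. The siRNA numbers name reagents used in both lines and were read as pairing by reagent: the difference of siRNA 3 and siRNA 1 correlated between lines with Pearson r of 0.42 over all genes and 0.65 over the 69. DESeq2 1.42.0 was an alternative. SE is the log2 fold change over the square root of F. Transcript length, GC and unique 50-base stretches came from GENCODE 29 (median over coding transcripts), start windows from RefSeq (GRCh38.p14). No coordinates were converted from hg19.

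Named genes were the 3 highest and 3 lowest by log2 fold change in each comparison, called genes up to 8 per direction, the 5 highest and lowest per kb, genes at the count minimum, and RPLP0, RPLP1, RPLP2, RPS6, RPL5, RPL11, RPSA, RPL41 and RPS27A; others named were chosen after their values were seen. Members, lists and comparisons were chosen with earlier results of these data known. The mean HER2 contrast, DESeq2 with the block and the GC correction (lowess, span 0.3) were added after seeing the data. Some genes are counted in the totals but not reported here by name.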

Additional observations from a re-analysis of the deposited data

How the results depend on the processing

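The number of the 69 genes called depended on how the spread was estimated. The common coefficient of variation was 0.408 in the group-means fit, 0.208 with the replicate block, 0.3 with the block and without control A or B, and near 0.053 with the block and without any 1 of the 4 siRNA libraries, when it rests on controls A and B. In that last case the block called 13 or 14 higher and 45 lower for HER2 on plastic, 41 to 46 and 8 to 10 for soft in EV, 51 or 52 and 6 for soft in HER2, 34 and 13 or 14 for the soft interaction, and 31 to 44 and 5 to 8 for the siRNA interaction. Against 0 calls in the group-means fit, the replicate block called 30 for HER2 on plastic, 21 for soft in EV, 8 for siRNA in EV, 4 for siRNA in HER2, 3 for HER2 on soft and 16 for HER2 with siRNA, and 34 instead of 12 for the mean HER2 contrast. With all libraries soft in HER2 and both interactions had 0 in both edgeR fits. With the block and the GC trend removed these counts were 16, 22, 9, 1, 0, 9 and 26; with the GC trend removed alone the mean HER2 contrast had 3. DESeq2 called 20 for HER2 on plastic, 10 for soft in EV, 5 for soft in HER2, 2 for siRNA in EV, 6 for siRNA in HER2, 3 for HER2 with siRNA, 1 for the soft interaction and 19 for siRNA 3 against siRNA 1 (11 in edgeR). DESeq2 with the replicate block called 34, 31, 31, 10, 29, 4 and 21 for HER2 on plastic, soft in EV, soft in HER2, siRNA in EV, siRNA in HER2, HER2 on soft and HER2 with siRNA, 20 and 8 for the soft and siRNA interactions and 31 for the mean HER2 contrast. HER2 with siRNA had 1 call with library totals and 1 with no filter. Leaving out 1 library in turn gave, with group means, 0 to 12 calls for HER2 on plastic, 0 to 1 for soft in EV, and 0 to 20 for the mean HER2 contrast. For siRNA 3 against siRNA 1, fitted with the block, it gave 0 without control A or B and 32 to 56 without an siRNA library. The median changed to -0.15 for HER2 on plastic, 0.23 for soft in HER2, 0.25 for siRNA in HER2, 0.14 for the soft interaction and 0.06 for the siRNA interaction when the length trend was subtracted. Without 1 library it ran from 0.25 to 0.57 for siRNA in HER2, -0.15 to 0.15 for HER2 with siRNA and 0.22 to 0.52 for the siRNA interaction. Named values that changed sign were RPL17 (-0.03 to 0.85) and RPL36A (-0.09 to 2.02) for HER2 with siRNA, negative without HER2 siRNA 1, RPS16 (-1.45 to 0.04) in the siRNA interaction, positive without EV siRNA 1, RPLP2 (0.05, and 0.05 with the block) in the mean HER2 contrast with the GC trend removed, and RPL15 for siRNA 3 against siRNA 1 (-0.00 with no filter, -0.04 to 0.05 without 1 library). The causes were not tested. For fits without 1 library no share of all genes called is given, so their counts are not set against all genes. A count minimum of 10 would have given 74 genes and one of 200, 62. Few counts limit RPL17, RPL36A, RPL41 and RPL39.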
